A study of Mus musculus with 12 samples.

Results

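The genes examined here were 37 that dividing cells use to copy and separate their chromosomes: 22 that act in mitosis, 11 that act in DNA replication or make its nucleotides, and 4 that act in G1 or at the entry into S phase. They were chosen by symbol from a list of mitosis, replication and cyclin genes and not by a cut on their values. Earlier results of these data were known when they were chosen. All 37 were among the 23183 genes measured. Expression was read by RNA sequencing of kidney cortex on day 7 after unilateral ureteral obstruction (UUO), a surgical model in which tying off the ureter of 1 kidney brings tubular injury, inflammation and fibrosis. 4 groups of 3 libraries were compared, namely the obstructed (UUO) and contralateral (CL) kidneys of WT mice and the UUO and CL kidneys of Acot12-/- mice. All mice were male C57BL/6 (C57BL/6N in the study's design), aged 6 to 7 weeks, and every animal had the operation, so the CL kidney is the untied kidney of an operated mouse and not a sham control. Acot12-/- mice lacked the gene in the whole body, through germline transmission of a mutant allele made with an RNA-guided nuclease. ACOT12 is an acyl-CoA thioesterase. The question was how far the expression of proliferation genes differed by kidney and by genotype.

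Expression of these genes follows the cell cycle. In G1, D-type cyclins with CDK4 or CDK6 and then cyclin E with CDK2 phosphorylate the retinoblastoma protein and free E2F factors, which switch on the genes for the replication machinery. Genes of mitosis peak later, in G2 and M, under B-MYB, FOXM1 and the MuvB complex, which bind a promoter element called the cell cycle genes homology region (CHR). Most tubule cells of an adult kidney are out of the cycle, and after injury tubule cells as well as interstitial and immune cells can enter it.

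Read depth was not given in the files. From the steps between the lowest FPKM values it came to about 12300000 to 16200000 fragments per CL library and 18500000 to 23000000 per UUO library. A single fragment on a transcript of 3 kb was then worth 0.0206 to 0.0272 FPKM in CL and 0.0145 to 0.018 FPKM in UUO libraries, which sets how finely low values can be told apart. Acot12 itself, the targeted gene, read 73.8, 52.7 and 78.1 FPKM in the WT CL, 9.98, 16.7 and 21.2 in the WT UUO, 9.14, 9.01 and 6.80 in the Acot12-/- CL and 3.28, 1.80 and 3.86 in the Acot12-/- UUO libraries, lower in Acot12-/- than in WT in both kidneys (adjusted p = 0.000969 in CL and 0.0459 in UUO) but not at 0. The CL library of Acot12-/- replicate 2 stood apart from the other CL libraries of its genotype: it scored 52.3 on the second principal component of all tested genes, against -22.2 and -33.0. Counts and medians that rest on it are given with and without it. The labels do not say that each library came from a different mouse, so p-values measure the spread between these libraries. Values of a group are in FPKM (fragments counted on a gene, divided by its transcript length and by the depth of the library), in the order of replicates 1, 2 and 3. Changes are differences of log2(FPKM + 1) with their standard error, and a gene was called changed when its p, adjusted by Benjamini-Hochberg over all 13243 genes tested, was under 0.05.

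The promoters of the mitosis and of the replication genes carried different elements, and the stretches shown here are those of genes whose values the results turn on. RefSeq promoter windows of GRCm38.p6, from 250 bases before to 50 after the start of transcription, were on hand for 30 of the 37 genes (not for Ccna2, Aurkb, Kif20a, Tpx2, Mcm4, Ccne2 and Ccnd1). Each was searched on both strands for the CHR (TTTGAA or TTCGAA), the CCAAT box (CCAAT) and the E2F site (TTTCCCGC, TTTCGCGC, TTTGCCGC or TTTGGCGC). 14 of 18 mitosis promoters held a CHR (77.8%) and 2 of 10 replication promoters did (20%), beside 19.2% of all 32851 promoters. CCAAT boxes stood in 16 of 18 mitosis and 8 of 10 replication promoters, beside 37.4% of all. For the E2F site the order was the other way, with 1 of 18 mitosis promoters, 4 of 10 replication promoters (40%) and 2.26% of all. Neither of the 2 G1 promoters on hand, those of E2f1 and Ccne1, held any of these letters. Matches of different kinds overlapped in 53 of all promoters and in 1 of the members' promoters. Below are bases -120 to 30 around the start, read on the strand of the gene, with the matched letters in capitals. The first 4 belong to mitosis genes (Cdk1 on chr10:69352883-69353032, Ccnb2 on chr9:70421525-70421674, Kif23 on chr9:61946770-61946919 and Bub1 on chr2:127831830-127831979), the next 2 to replication genes that hold E2F sites (Mcm3 on chr1:20820283-20820432 and Mcm6 on chr1:128359676-128359825), and the last to Tyms (chr5:30073596-30073745), a replication gene that fell and whose window held none of the letters. All 7 genes lie on the minus strand.
Cdk1: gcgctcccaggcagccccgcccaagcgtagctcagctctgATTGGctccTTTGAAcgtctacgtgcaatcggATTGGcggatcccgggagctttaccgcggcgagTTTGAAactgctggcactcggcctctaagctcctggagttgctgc
Ccnb2: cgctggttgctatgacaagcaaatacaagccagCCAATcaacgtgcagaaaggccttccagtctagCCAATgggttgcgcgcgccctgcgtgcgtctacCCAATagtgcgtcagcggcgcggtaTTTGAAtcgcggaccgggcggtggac
Kif23: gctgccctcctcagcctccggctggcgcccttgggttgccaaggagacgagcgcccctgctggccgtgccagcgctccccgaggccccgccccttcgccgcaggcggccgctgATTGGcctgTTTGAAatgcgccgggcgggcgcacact
Bub1: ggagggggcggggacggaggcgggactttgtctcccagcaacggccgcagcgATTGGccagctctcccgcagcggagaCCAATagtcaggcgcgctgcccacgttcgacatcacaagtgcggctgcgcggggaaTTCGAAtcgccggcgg
Mcm3: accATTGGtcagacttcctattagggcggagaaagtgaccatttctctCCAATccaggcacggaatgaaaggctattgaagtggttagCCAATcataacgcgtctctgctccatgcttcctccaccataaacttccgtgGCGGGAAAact
Mcm6: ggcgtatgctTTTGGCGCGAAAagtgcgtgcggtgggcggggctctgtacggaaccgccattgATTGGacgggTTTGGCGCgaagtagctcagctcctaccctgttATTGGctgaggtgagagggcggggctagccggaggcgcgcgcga
Tyms: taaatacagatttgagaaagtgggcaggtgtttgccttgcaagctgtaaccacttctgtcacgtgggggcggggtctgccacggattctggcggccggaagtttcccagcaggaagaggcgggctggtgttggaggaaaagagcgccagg
In Cdk1, Ccnb2, Kif23 and Bub1 a CHR lay within 20 bases of the start, with 1 or more CCAAT boxes upstream of it. A match is a description of the letters and does not show that a factor was bound. The windows of Birc5, Nusap1, Tk1, E2f1 and Ccne1 held none of the letters either. Of these, Birc5 was called higher in both genotypes, and Tk1 and Ccne1 in WT mice alone by the threshold.

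Seen together, the genes were higher in obstructed kidneys of WT mice. Of the 37 genes 36 passed the filter on low values, and of these 21 rose and 1 fell in WT UUO against WT CL. That is 58.3% higher, beside 23.6% of all tested genes called higher and 23.9% called lower in this comparison. The median change was 0.57, against 0.0051 over all tested genes. For 31 of the 36 genes every UUO library read above every CL library, as for 35.5% of all genes, and for 2, Tyms and Ccnd1, every UUO library read lower, as for 35.8% of all genes. In Acot12-/- mice 11 genes rose and 2 fell, so that 30.6% were called higher beside a background of 26.6% higher and 27.2% lower, and the median change was 0.26 (0.42 without replicate 2 of Acot12-/- CL). Their groups overlapped for 26 of 36 genes; every UUO library read higher for 8, beside 27.8% of all genes, and lower for 2, beside 27.6%. With all 12 libraries the share called higher in Acot12-/- mice was thus near that of all genes, unlike in WT mice. The share called lower, 5.56%, was below that of all genes. The share called higher depended on single libraries. Without replicate 2 of Acot12-/- CL 17 of 36 were called higher, beside 29.5% of all genes. Without replicate 3 of Acot12-/- UUO 15 were, beside 23.4%. Without replicate 1 or 2 of Acot12-/- UUO 6 were, beside 23.8% and 21.9%. Over both genotypes 21 rose and 2 fell, beside 31.3% and 32.1% of all genes. No gene moved in opposite directions by its calls. 11 rose in both genotypes (Ccnb2, Bub1, Bub1b, Aurkb, Plk1, Birc5, Kif23, Tpx2, Mcm3, Mcm4 and Mcm7), 10 in WT mice alone by the threshold (Cdk1, Top2a, Aurka, Kif20a, Prc1, Ube2c, Mcm2, Mcm5, Tk1 and Ccne1) and none in Acot12-/- mice alone. That a call was made in WT and not in Acot12-/- mice does not show a difference, which is tested by the interaction below. With all libraries scaled to the same total FPKM, 34 rose and 1 fell in WT and 24 rose and 1 fell in Acot12-/- mice, on a median of all genes that moved to 0.62 and 0.45. In that scaling 56.1% of all genes were called higher and 7.91% lower in WT, and 45.9% and 11.7% in Acot12-/- mice. When a fold of at least 2 was asked as well, 3 of the 36 rose in WT mice, near the 8.74% of all genes.

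**Figure D1:**
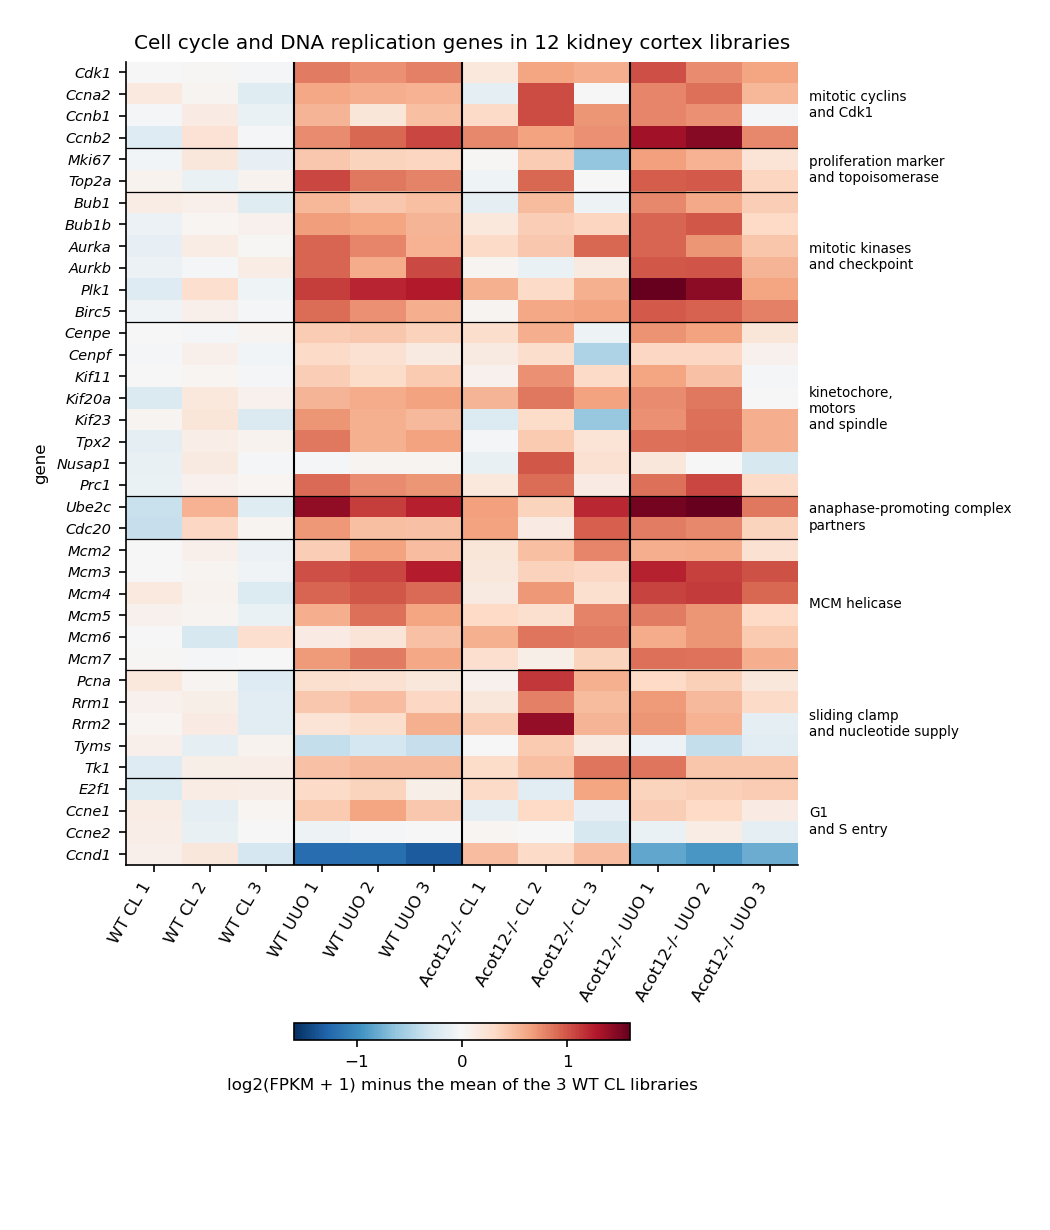
Each row is a gene, ordered by role, and each column a library; colour gives log2(FPKM + 1) minus the mean of the 3 WT CL libraries (red higher, blue lower). The WT UUO columns are red for most genes and blue for Ccnd1, while the Acot12-/- CL columns are also red for many genes of replication.

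RNA from the mixed cells of kidney cortex cannot tell whether more cells were in the cycle or each held more of these transcripts. Marker genes of other cells changed as well, though not always in the same way by genotype. In UUO against CL, 11 of 12 injured tubule markers rose in WT and 12 of 12 in Acot12-/- mice, as did 11 and 12 of 12 macrophage, 8 and 9 of 10 lymphocyte and 7 and 10 of 11 fibroblast markers, while 10 and 11 of 11 proximal tubule markers fell. Of 12 endothelial markers 1 rose and 4 fell in WT, and 10 rose and 0 fell in Acot12-/- mice. Median changes in WT and Acot12-/- mice were 1.86 and 2.91 for macrophage, 1.42 and 2.00 for fibroblast and 1.22 and 1.47 for lymphocyte markers. They were 3.1 and 3.07 for injured tubule markers, beside 0.57 and 0.26 for the 36 genes. Summed over its 12 genes, the macrophage list read 170 to 195 FPKM in WT CL and 694 to 844 in WT UUO, and 61.4 to 130 and 758 to 1005 FPKM in Acot12-/- mice. The injured tubule list went from 1266 to 3448 FPKM in WT CL to 16261 to 18081 in WT UUO, and from 2023 to 5301 to 17661 to 19522 FPKM in Acot12-/- mice. The lymphocyte list rose from 17 to 23.7 FPKM in WT CL to 54.1 to 57.5 in WT UUO, and from 4.77 to 6.79 to 27.5 to 44.3 in Acot12-/- mice, with Cd3d, Cd4, Cd2 and Ms4a1 listed at 0 in 1 or more libraries. The fibroblast list rose from 191 to 234 to 474 to 656 FPKM in WT and from 62.6 to 128 to 446 to 629 FPKM in Acot12-/- mice. The part of these cells in the changes of the cell cycle genes was not tested. Podocyte markers, found in cortex, summed to 63.6 to 130.0 FPKM over all 12 libraries.

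The cyclin-dependent kinase that drives mitosis and its cyclins rose in WT obstructed kidneys in part: 2 of 4 were called in WT and 1 of 4 in Acot12-/- mice. Over all genes 23.6% and 26.6% were called higher, so that the share in Acot12-/- mice was near that of all genes. Cdk1, the mitotic kinase, read 3.55, 3.59 and 3.41 FPKM in the WT CL and 7.02, 6.50 and 6.88 in the WT UUO libraries, and in Acot12-/- mice 4.06, 6.0 and 5.77 in CL and 8.26, 6.66 and 5.97 in UUO. The WT groups lay far apart, while in Acot12-/- mice the lowest UUO library lay just below the highest CL library. The change was 0.79 ± 0.15 (adjusted p = 0.00125) in WT and 0.35 ± 0.15 (adjusted p = 0.0718) in Acot12-/- mice. Ccnb2, a B-type cyclin that partners CDK1, read 3.36, 4.89 and 3.90 in WT CL against 7.48, 8.50 and 9.51 FPKM in WT UUO, and 7.54, 6.84 and 7.34 against 11.7, 12.8 and 7.54 in Acot12-/- mice. It was the single member of this group called in both genotypes, with changes of 0.92 ± 0.19 (adjusted p = 0.00171) and 0.47 ± 0.19 (adjusted p = 0.0473). The call in Acot12-/- mice was lost in most of the 12 fits that left out a library. It was also lost with no filter on low values and with 0.1 added in place of 1. Replicate 3 of the Acot12-/- UUO kidneys read level with the CL kidneys of its genotype, at 7.54 FPKM.

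Ccnb1, the other B-type cyclin, read 2.76, 3.18 and 2.54 in WT CL, 4.58, 3.37 and 4.31 in WT UUO, 3.71, 6.89 and 5.25 in Acot12-/- CL and 5.55, 5.34 and 2.75 FPKM in Acot12-/- UUO libraries. In WT mice every UUO library lay above CL, by 0.41 ± 0.23 (adjusted p = 0.168), and in Acot12-/- mice the groups overlapped, with a change of -0.19 ± 0.23 (adjusted p = 0.51). Ccna2, cyclin A2, which acts in S phase and G2, stood at 8.48, 7.76 and 6.47 in WT CL, 12.1, 11.8 and 11.5 in WT UUO, 6.70, 16.6 and 7.60 in Acot12-/- CL and 13.7, 14.7 and 11.3 FPKM in Acot12-/- UUO. Again the WT groups did not overlap, the CL library of Acot12-/- replicate 2 was the highest of all 12, and neither genotype passed on its own (0.59 ± 0.25 with adjusted p = 0.0767 in WT and 0.43 ± 0.25 with adjusted p = 0.176 in Acot12-/- mice). With the kidneys paired by replicate number the WT change of Ccna2 passed (adjusted p = 0.0434 with a random and 0.0407 with a fixed block), and over both genotypes it rose by 0.51 ± 0.17 (adjusted p = 0.0213).

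Mki67 and Top2a, commonly used to mark dividing cells, were higher in UUO kidneys over both genotypes. Mki67, which coats mitotic chromosomes (chr7:135689784-135716361), read 4.47, 5.41 and 4.14 FPKM in WT CL and 6.61, 6.20 and 6.18 in WT UUO, whereas the Acot12-/- libraries read 4.71, 6.47 and 2.68 in CL and 7.87, 7.28 and 5.58 in UUO. WT UUO libraries all lay above WT CL; in Acot12-/- mice the CL libraries spread most widely and replicate 2 of CL lay inside the UUO range. The change was 0.38 ± 0.22 (adjusted p = 0.18) in WT, 0.54 ± 0.22 (adjusted p = 0.0561) in Acot12-/- mice and 0.46 ± 0.15 (adjusted p = 0.018) over both, and the pairing of kidneys brought that of Acot12-/- mice past the threshold (adjusted p = 0.0281 with a random and 0.0215 with a fixed block). Top2a, the topoisomerase that untangles sister DNA, read 3.11, 2.68 and 3.13 in WT CL, 7.30, 6.11 and 5.90 in WT UUO, 2.80, 6.49 and 2.99 in Acot12-/- CL and 6.77, 6.83 and 4.05 FPKM in Acot12-/- UUO. It rose in WT mice (0.90 ± 0.25 with adjusted p = 0.0105), and in Acot12-/- mice replicate 2 of CL lay among the UUO libraries (0.48 ± 0.25 with adjusted p = 0.122).

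The mitotic kinases and checkpoint genes were the group called most completely: 6 of 6 rose in WT and 5 of 6 in Acot12-/- mice. Over all genes 23.6% and 26.6% were called higher. Of these 5 Acot12-/- calls, that of Aurkb alone held in every fit that left out 1 library. Plk1, polo-like kinase 1, which acts in centrosome maturation and cytokinesis, rose the most of the 6 in WT mice. It read 1.06, 1.84 and 1.27 FPKM in WT CL against 4.10, 4.50 and 4.71 in WT UUO, and 2.51, 1.92 and 2.53 in Acot12-/- CL against 6.63, 5.38 and 2.66 FPKM in Acot12-/- UUO. No UUO library of either genotype fell among its own CL libraries, though replicate 3 of Acot12-/- UUO lay just above them. The changes were 1.20 ± 0.23 (adjusted p = 0.00129) and 0.77 ± 0.23 (adjusted p = 0.0147). Without replicate 1 or 2 of the Acot12-/- UUO libraries the latter was no longer called (highest adjusted p = 0.0688).

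Aurkb, the kinase of the chromosomal passenger complex that corrects faulty spindle attachments, read 1.56, 1.69 and 1.98 in WT CL, 4.23, 3.12 and 4.70 in WT UUO, 1.82, 1.55 and 2.03 in Acot12-/- CL and 4.47, 4.48 and 2.98 FPKM in Acot12-/- UUO. All 6 UUO libraries lay above all 6 CL libraries, and the rise was nearly alike in both genotypes (0.86 ± 0.17 with adjusted p = 0.00126 in WT and 0.82 ± 0.17 with adjusted p = 0.00132 in Acot12-/- mice; interaction -0.043 ± 0.24 with adjusted p = 0.985, 95% interval -0.56 to 0.47). Birc5, survivin, a subunit of that same complex, read 8.24, 9.10 and 8.40 in WT CL, 16.8, 14.9 and 13.3 in WT UUO, 8.90, 13.7 and 13.9 in Acot12-/- CL and 17.9, 17.3 and 15.8 FPKM in Acot12-/- UUO. It rose in both, by 0.73 ± 0.17 (adjusted p = 0.00361) and 0.47 ± 0.17 (adjusted p = 0.0308), and in each genotype all UUO libraries lay above CL. In Acot12-/- mice the call of Aurkb held in all 12 fits that left out a library, and that of Birc5 was lost in 3 of 12 (adjusted p up to 0.117).

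Aurka, the kinase of the spindle poles, differed: 1.84, 2.38 and 2.14 in WT CL and 4.94, 4.37 and 3.58 FPKM in WT UUO, against 2.85, 3.21 and 4.89 in Acot12-/- CL and 4.93, 4.06 and 3.23 FPKM in Acot12-/- UUO. The WT libraries separated and the Acot12-/- libraries did not, since replicate 3 of CL read close to the highest UUO library. Aurka rose in WT mice (0.76 ± 0.18 with adjusted p = 0.00528) and not detectably in Acot12-/- mice (0.14 ± 0.18 with adjusted p = 0.557); the interaction was -0.62 ± 0.26 (adjusted p = 0.428). Bub1 and Bub1b encode the spindle checkpoint kinase BUB1 and its partner BUBR1. Bub1 read 0.782, 0.747 and 0.438 in WT CL, 1.39, 1.21 and 1.30 in WT UUO, 0.488, 1.35 and 0.553 in Acot12-/- CL and 1.82, 1.5 and 1.16 FPKM in Acot12-/- UUO. Its levels were low, it passed 1 FPKM in 7 of 12 libraries, and replicate 2 of Acot12-/- CL lay among the UUO libraries of its genotype. It rose by 0.48 ± 0.18 (adjusted p = 0.0419) in WT and 0.50 ± 0.18 (adjusted p = 0.0332) in Acot12-/- mice. Each of these calls was lost in 1 or more of the 12 fits that left out a library. Bub1b read 0.955, 1.13 and 1.19 in WT CL, 2.33, 2.24 and 2.05 in WT UUO, 1.34, 1.75 and 1.66 in Acot12-/- CL and 3.0, 3.16 and 1.60 FPKM in Acot12-/- UUO. In WT mice the groups were well apart (0.62 ± 0.17 with adjusted p = 0.00998). In Acot12-/- mice replicate 3 of UUO lay within CL, and the call (0.45 ± 0.17 with adjusted p = 0.0415) was lost with the replicate number as a fixed block (adjusted p = 0.0542). It was also lost in most of the 12 fits that left out a library, with no filter on low values, and with 0.1 added in place of 1.

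**Figure D2:**
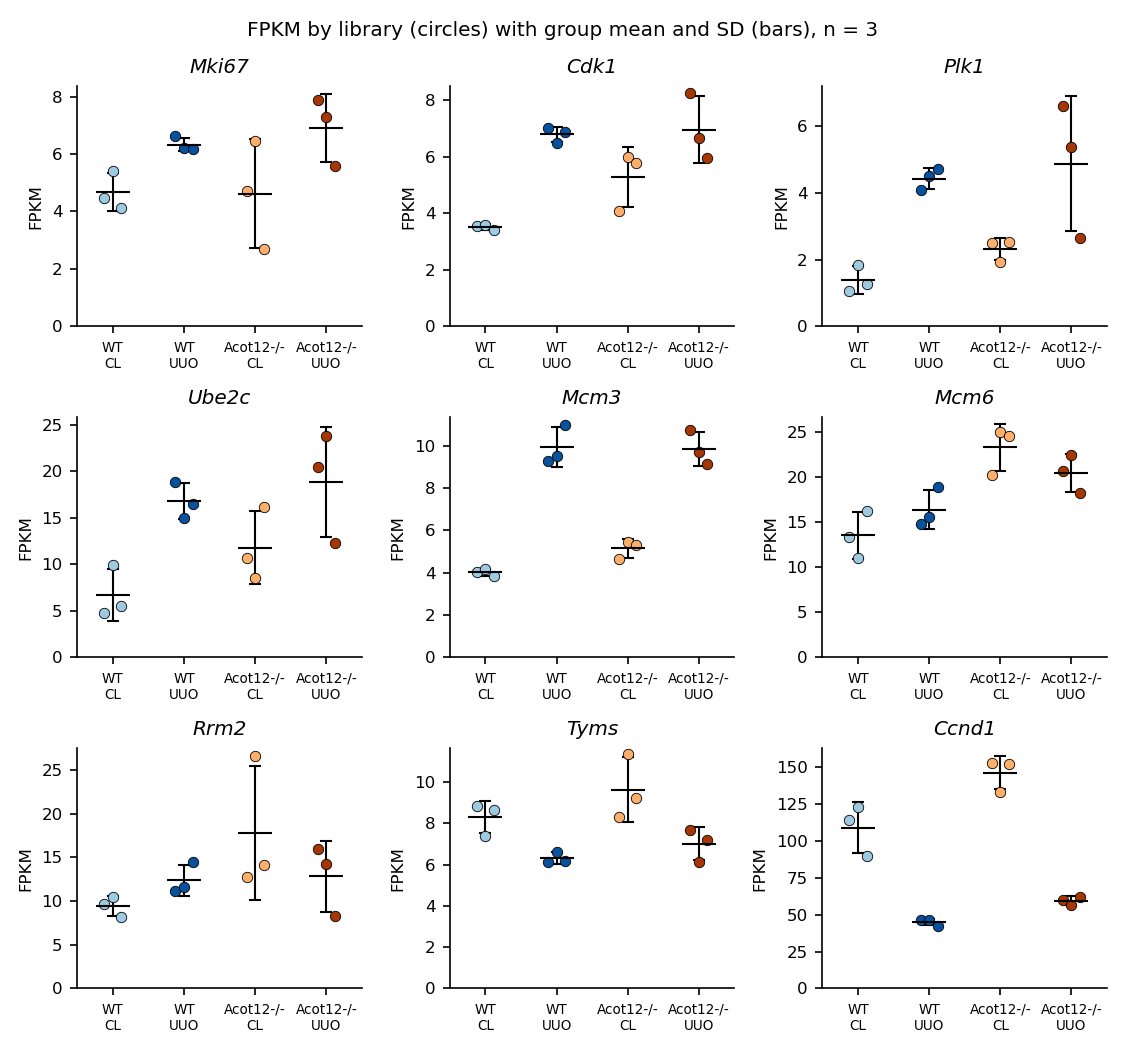
FPKM of 9 genes in every library (circles) with group mean and SD (bars, n = 3), on axes that start at 0. Cdk1, Plk1, Ube2c and Mcm3 read higher in WT UUO than in WT CL in every library, Mcm6 read higher in Acot12-/- CL than in WT CL, and Tyms and Ccnd1 read lower after obstruction.

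Among the 8 kinetochore, motor and spindle genes 4 rose in WT and 2 in Acot12-/- mice, beside 23.6% and 26.6% of all genes called higher. The share in Acot12-/- mice was thus near that of all genes. Kif23, a kinesin of the central spindle that cytokinesis needs, was called in both. It read 2.27, 2.60 and 1.69 in WT CL, 4.16, 3.70 and 3.55 in WT UUO, 1.71, 2.86 and 1.08 in Acot12-/- CL and 4.25, 4.80 and 3.73 FPKM in Acot12-/- UUO. UUO and CL libraries did not overlap in either genotype, and the change was 0.60 ± 0.20 (adjusted p = 0.0282) in WT and 0.91 ± 0.20 (adjusted p = 0.00244) in Acot12-/- mice. Tpx2, which activates Aurora A on the spindle, rose too: 1.67, 2.20 and 2.10 in WT CL, 4.37, 3.44 and 3.64 in WT UUO, 1.95, 2.97 and 2.48 in Acot12-/- CL and 4.47, 4.54 and 3.46 FPKM in Acot12-/- UUO. Every UUO library lay above every CL library of both genotypes, by 0.69 ± 0.15 (adjusted p = 0.00302) in WT and 0.58 ± 0.15 (adjusted p = 0.00683) in Acot12-/- mice.

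Kif20a, a kinesin of the midzone, rose in WT mice only by the threshold. Its values were 0.622, 1.15 and 0.997 in WT CL, 1.78, 1.89 and 1.99 in WT UUO, 1.78, 2.43 and 1.98 in Acot12-/- CL and 2.22, 2.43 and 0.921 FPKM in Acot12-/- UUO. The 3 CL libraries of Acot12-/- mice read as high as WT UUO libraries, and replicate 3 of Acot12-/- UUO was below them all. Changes were 0.60 ± 0.20 (adjusted p = 0.0288) in WT and -0.14 ± 0.20 (adjusted p = 0.585) in Acot12-/- mice; its interaction, -0.74 ± 0.29 (adjusted p = 0.365), had the smallest p of the 36 (unadjusted p = 0.0241). Prc1, which bundles midzone microtubules, read 2.53, 2.99 and 2.87 in WT CL, 6.12, 5.40 and 5.20 in WT UUO, 3.25, 6.06 and 3.15 in Acot12-/- CL and 5.98, 6.93 and 3.70 FPKM in Acot12-/- UUO. WT groups were apart (0.79 ± 0.22 with adjusted p = 0.0124), and in Acot12-/- mice replicate 2 of CL lay among the UUO libraries (0.36 ± 0.22 with adjusted p = 0.202).

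Cenpe, a kinetochore motor, read 0.925, 0.892 and 1.01 in WT CL, 1.58, 1.63 and 1.51 in WT UUO, 1.36, 1.90 and 0.841 in Acot12-/- CL and 2.18, 2.03 and 1.22 FPKM in Acot12-/- UUO. WT UUO libraries all lay above CL without passing the test (0.40 ± 0.18 with adjusted p = 0.076); it passed with the kidneys paired (adjusted p = 0.0374 with a random and 0.0266 with a fixed block). The change in Acot12-/- mice was 0.25 ± 0.18 (adjusted p = 0.241). Cenpf, another kinetochore protein, stood near 1 FPKM throughout, at 0.980, 1.14 and 0.955 in WT CL, 1.5, 1.40 and 1.24 in WT UUO, 1.23, 1.46 and 0.433 in Acot12-/- CL and 1.54, 1.53 and 1.11 FPKM in Acot12-/- UUO. The WT groups just cleared each other, the Acot12-/- groups overlapped, and changes were 0.23 ± 0.18 (adjusted p = 0.305) and 0.26 ± 0.18 (adjusted p = 0.239). Kif11, the kinesin that pushes spindle poles apart, read 1.38, 1.44 and 1.35 in WT CL, 2.14, 1.93 and 2.19 in WT UUO, 1.5, 2.98 and 1.97 in Acot12-/- CL and 2.72, 2.31 and 1.33 FPKM in Acot12-/- UUO. Here too WT libraries separated (0.37 ± 0.19 with adjusted p = 0.134), while the highest Acot12-/- value was a CL and the lowest a UUO library (-0.014 ± 0.19 with adjusted p = 0.959). Nusap1, a spindle protein, was the exception among the 8 in WT mice, with 4.66, 5.83 and 5.05 in CL and 5.04, 5.34 and 5.33 FPKM in UUO, against 4.70, 11.3 and 6.33 in CL and 6.0, 5.19 and 4.18 FPKM in UUO of Acot12-/- mice. Its groups overlapped in both genotypes (0.017 ± 0.23 with adjusted p = 0.957 and -0.40 ± 0.23 with adjusted p = 0.167), and replicate 2 of Acot12-/- CL read highest of all libraries.

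Ube2c and Cdc20, which work with the anaphase-promoting complex to degrade cyclins and securin, gave 1 call of 2 in WT and none in Acot12-/- mice. Shares of all genes called higher were 23.6% and 26.6%. Ube2c, the ubiquitin-conjugating enzyme, read 4.79, 9.92 and 5.48 in WT CL, 18.9, 15 and 16.5 in WT UUO, 10.7, 8.50 and 16.1 in Acot12-/- CL and 20.5, 23.8 and 12.3 FPKM in Acot12-/- UUO. The gain in WT mice, 1.25 ± 0.29 (adjusted p = 0.00412), was the largest rise among the 36 genes in that comparison. In Acot12-/- mice replicate 3 read higher in CL than in UUO, and the change was 0.63 ± 0.29 (adjusted p = 0.0863). Cdc20, the activator of the complex, read 3.75, 6.73 and 5.32 in WT CL, 8.98, 7.61 and 7.52 in WT UUO, 8.56, 5.72 and 10.9 in Acot12-/- CL and 9.81, 9.48 and 6.83 FPKM in Acot12-/- UUO. WT groups did not overlap but the change missed the threshold (0.55 ± 0.23 with adjusted p = 0.0658; adjusted p = 0.0499 with a random block of paired kidneys), and Acot12-/- groups overlapped (0.072 ± 0.23 with adjusted p = 0.814).

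The MCM genes encode the 6 subunits of the ring that unwinds DNA at the replication fork, and 5 of 6 rose in WT and 3 of 6 in Acot12-/- mice. Shares of all genes called higher were 23.6% and 26.6%. Mcm3 had the smallest p of the 21 genes that rose in WT mice. It read 4.02, 4.17 and 3.83 in WT CL, 9.26, 9.49 and 11 in WT UUO, 4.65, 5.44 and 5.32 in Acot12-/- CL and 10.7, 9.69 and 9.12 FPKM in Acot12-/- UUO. All 6 UUO libraries lay above all 6 CL libraries, by 1.12 ± 0.12 (adjusted p = 3.37e-05) in WT and 0.82 ± 0.12 (adjusted p = 0.000153) in Acot12-/- mice. Mcm4 did the same, with 4.22, 3.84 and 3.02 in WT CL, 7.87, 8.30 and 7.78 in WT UUO, 4.16, 6.53 and 4.59 in Acot12-/- CL and 8.83, 9.16 and 7.82 FPKM in Acot12-/- UUO, and changes of 0.94 ± 0.16 (adjusted p = 0.00052) and 0.67 ± 0.16 (adjusted p = 0.00358). Mcm7 read 11, 10.6 and 10.8 in WT CL, 17.8, 20 and 17.1 in WT UUO, 13.2, 11.6 and 14.1 in Acot12-/- CL and 20.7, 20.5 and 16.7 FPKM in Acot12-/- UUO. It rose by 0.71 ± 0.13 (adjusted p = 0.0011) in WT and 0.54 ± 0.13 (adjusted p = 0.00495) in Acot12-/- mice, again with no overlap.

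Subunits 2 and 5 followed the kidney in WT mice alone by the threshold. Mcm2 read 5.94, 6.32 and 5.46 in WT CL and 8.06, 9.81 and 8.69 FPKM in WT UUO, but 6.87, 8.59 and 10.9 in Acot12-/- CL and 9.35, 9.44 and 7.15 FPKM in Acot12-/- UUO. WT groups were apart (0.51 ± 0.17 with adjusted p = 0.0248). In Acot12-/- mice the highest library was a CL kidney, and the estimate was near 0 (-0.0090 ± 0.17 with adjusted p = 0.968, 95% interval -0.37 to 0.36). Mcm5 read 4.02, 3.95 and 3.44 in WT CL, 6.15, 7.81 and 6.42 in WT UUO, 4.99, 4.75 and 7.29 in Acot12-/- CL and 7.57, 6.83 and 4.99 FPKM in Acot12-/- UUO, with WT groups apart, Acot12-/- groups overlapping and a change of 0.69 ± 0.18 (adjusted p = 0.00714) in WT and 0.16 ± 0.18 (adjusted p = 0.46) in Acot12-/- mice. Mcm6 stood out by genotype. It read 13.3, 11 and 16.2 in WT CL, 14.8, 15.5 and 18.9 in WT UUO, 20.3, 25.1 and 24.6 in Acot12-/- CL and 20.7, 22.4 and 18.3 FPKM in Acot12-/- UUO. Obstruction did not change it detectably (0.27 ± 0.17 with adjusted p = 0.204 in WT and -0.18 ± 0.17 with adjusted p = 0.387 in Acot12-/- mice), and its CL libraries are taken up again below. Whether the subunits differed from each other in their change was not tested.

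Of the clamp and the 4 nucleotide enzymes 1 rose in WT mice, none rose in Acot12-/- mice, and 1, Tyms, fell in Acot12-/- mice. Over all genes 23.6% were called higher in WT mice, and 26.6% higher and 27.2% lower in Acot12-/- mice. The share that rose in WT mice and that which fell in Acot12-/- mice were near those of all genes. Whether the clamp and these enzymes differed from the other groups of genes was not tested. Pcna, the sliding clamp that holds polymerases on DNA and also serves in repair, was the most abundant replication gene. It read 71.8, 65.8 and 55.2 FPKM in WT CL, 76.8, 76.1 and 72.8 in WT UUO, 66.9, 141 and 94.9 in Acot12-/- CL and 79.9, 83.7 and 72.7 FPKM in Acot12-/- UUO. Apart from replicates 2 and 3 of Acot12-/- CL all libraries lay between 55.2 and 83.7. Every WT UUO library lay above WT CL, narrowly (72.8 against 71.8 FPKM), the Acot12-/- groups overlapped, and neither change passed (0.23 ± 0.22 with adjusted p = 0.419 in WT and -0.29 ± 0.22 with adjusted p = 0.296 in Acot12-/- mice). Rrm2, the regulated subunit of ribonucleotide reductase, read 9.65, 10.4 and 8.21 in WT CL, 11.1, 11.6 and 14.4 in WT UUO, 12.7, 26.6 and 14.1 in Acot12-/- CL and 16, 14.2 and 8.29 FPKM in Acot12-/- UUO. Again replicate 2 of Acot12-/- CL was the highest of all, and WT UUO libraries all lay above WT CL (11.1 against 10.4 FPKM at the nearest). The changes were 0.36 ± 0.27 (adjusted p = 0.302) and -0.42 ± 0.27 (adjusted p = 0.219). Rrm1, the large subunit, read 6.66, 6.79 and 5.52 in WT CL, 8.84, 9.23 and 8.19 in WT UUO, 7.30, 11.7 and 9.40 in Acot12-/- CL and 10.7, 9.47 and 8.06 FPKM in Acot12-/- UUO. The WT groups did not overlap (0.42 ± 0.17 with adjusted p = 0.0579; adjusted p = 0.0368 with a random block of paired kidneys) and the Acot12-/- groups did (0.0052 ± 0.17 with adjusted p = 0.982).

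Tk1, the thymidine kinase of the salvage route, rose in WT mice. Its values were 7.21, 9.13 and 9.20 in WT CL, 12.1, 12.6 and 12.6 in WT UUO, 10.6, 12.2 and 16.2 in Acot12-/- CL and 16.2, 11.8 and 11.9 FPKM in Acot12-/- UUO. All WT UUO libraries lay above WT CL (0.51 ± 0.18 with adjusted p = 0.032), though with a fixed block of paired kidneys the adjusted p was 0.055. In Acot12-/- mice the groups overlapped (0.036 ± 0.18 with adjusted p = 0.878). Tyms, thymidylate synthase, which makes thymidylate anew, went the other way: 8.83, 7.39 and 8.66 in WT CL, 6.13, 6.63 and 6.16 in WT UUO, 8.29, 11.4 and 9.22 in Acot12-/- CL and 7.68, 6.11 and 7.20 FPKM in Acot12-/- UUO. In each genotype every UUO library read below every CL library. The change was -0.34 ± 0.14 (adjusted p = 0.0641) in WT and -0.41 ± 0.14 (adjusted p = 0.0299) in Acot12-/- mice, and -0.37 ± 0.10 (adjusted p = 0.00495) over both. Pairing the kidneys as a random block brought the WT change past the threshold (adjusted p = 0.0466), and a fixed block took the Acot12-/- change out of it (adjusted p = 0.0648). When libraries were scaled to equal totals, which moved the median of all genes upward, the Acot12-/- change of Tyms turned to 0.0825.

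At the entry into the cycle the genes did not go together. Ccnd1, cyclin D1, the growth factor-responsive cyclin of G1 (chr7:144929931-144939925), fell in both genotypes and had the largest change of the 36 over both. It read 114, 123 and 89.7 FPKM in WT CL and 46.1, 46.2 and 42.5 in WT UUO, and in Acot12-/- mice 153, 134 and 153 in CL and 60.2, 56.3 and 62 in UUO. UUO libraries read at most 62 FPKM and CL libraries at least 89.7 FPKM, with no overlap. The change was -1.25 ± 0.15 (adjusted p = 5.56e-05) in WT and -1.28 ± 0.15 (adjusted p = 2.63e-05) in Acot12-/- mice, and it was called in all 12 fits that left out a library. Ccne1, cyclin E1, rose in WT mice: 1.21, 0.844 and 1.07 in CL and 1.72, 2.16 and 1.76 FPKM in UUO, against 0.852, 1.55 and 0.856 in CL and 1.68, 1.54 and 1.23 FPKM in UUO of Acot12-/- mice. WT groups were apart (0.50 ± 0.15 with adjusted p = 0.018), and in Acot12-/- mice replicate 2 of CL lay within the UUO libraries (0.26 ± 0.15 with adjusted p = 0.167). E2f1, an activator of replication genes, read 3.0, 4.08 and 4.03 in WT CL, 4.79, 5.0 and 3.97 in WT UUO, 4.79, 3.12 and 6.23 in Acot12-/- CL and 4.99, 5.11 and 5.18 FPKM in Acot12-/- UUO. Its groups overlapped in both genotypes (0.25 ± 0.19 with adjusted p = 0.29 and 0.13 ± 0.19 with adjusted p = 0.587). Ccne2, cyclin E2, was the gene that did not pass the filter. It read 0.529, 0.318 and 0.436 in WT CL, 0.343, 0.40 and 0.420 in WT UUO, 0.454, 0.423 and 0.198 in Acot12-/- CL and 0.325, 0.550 and 0.293 FPKM in Acot12-/- UUO, under 1 FPKM in all libraries and with no test.

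The genes were also averaged within each library, as a description with no test. The mean of log2(FPKM + 1) over the 22 mitosis genes was 1.86 ± 0.11 (SD, n = 3) in WT CL and 2.50 ± 0.057 in WT UUO, and in Acot12-/- mice 2.21 ± 0.19 in CL and 2.56 ± 0.28 in UUO. Over the 11 replication genes it was 3.25 ± 0.047 in WT CL and 3.74 ± 0.054 in WT UUO, but in Acot12-/- mice 3.72 ± 0.21 in CL and 3.80 ± 0.17 in UUO. The replication means of replicates 1, 2 and 3 of Acot12-/- CL were 3.48, 3.88 and 3.79, and that of replicate 1 lay between those of the WT CL and WT UUO libraries.

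**Figure D3:**
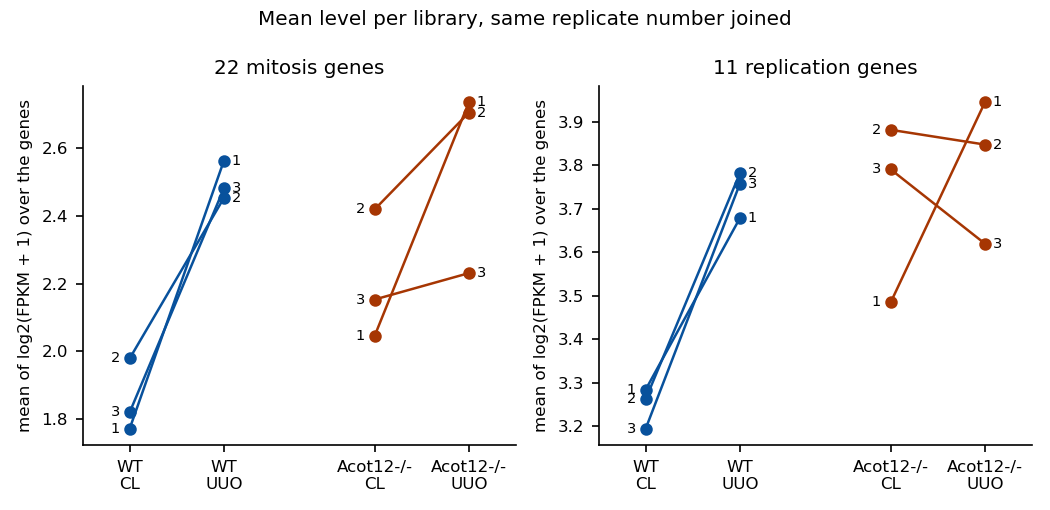
Mean of log2(FPKM + 1) over 22 mitosis genes (left) and 11 replication genes (right) in each library; lines join the CL and UUO kidney of the same replicate number, given beside each point. All 3 WT lines rise, from 1.77 to 1.98 in CL to 2.45 to 2.56 in UUO for mitosis, whereas the Acot12-/- lines for replication rise for replicate 1 and fall for replicates 2 and 3.

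The kidneys of the same replicate number deviated together from their group means within each genotype (correlation over genes 0.134 to 0.364 in WT and 0.186 to 0.322 in Acot12-/- mice), and were read as pairs. The labels do not say that they are pairs. For WT replicate 1 the correlation, 0.134, was no higher than that of WT CL replicate 2 with WT UUO replicate 1, 0.139. Changes by pair are thus a reading that assumes the pairing. In the 3 WT pairs the median of UUO minus CL over the 36 genes was 0.61, 0.47 and 0.58, with 34, 33 and 33 genes higher in UUO. In the Acot12-/- pairs the median was 0.57, 0.13 and -0.00019, with 34, 24 and 18 genes higher. The first Acot12-/- pair thus moved like the WT pairs, and the third did not move on balance. Within the groups, replicate 3 of Acot12-/- UUO held the lowest value of its group for 32 of 36 genes, and replicate 2 of Acot12-/- CL the highest for 23 of 36. Leaving out replicate 3 of UUO gave 16 called genes in Acot12-/- mice (15 higher), where 23.4% of all genes were called higher. Leaving out replicate 2 of CL gave 19 (17 higher), where 29.5% of all genes were called higher, and a median change of 0.42. Leaving out replicate 2 of UUO gave 7 (6 higher) in place of 13, where 21.9% of all genes were called higher. Without both kidneys of replicate 2 the count was 15 (14 higher), where 26.3% of all genes were called higher, a setting chosen after seeing the data.

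Between genotypes more of the genes had small p-values in the CL than in the UUO kidneys. In UUO kidneys none of the 36 was called with limma; 1, Ccnd1, had an unadjusted p under 0.05, beside 2.36% of all genes. Over all genes 0.0151% were called, all lower. The median difference of Acot12-/- from WT over the 36 was 0.08, against 0.0020 over all genes. It lay between 0.0038 and 0.18 when 1 library was left out (0.022 without replicate 2 of Acot12-/- UUO), and with libraries scaled to equal totals it was -0.077, on a median of all genes of -0.15. Groups overlapped for 34 of the 36, while every Acot12-/- library read higher for 5.5% of all genes and lower for 6.48%. Ccnd1 was higher in every Acot12-/- library (0.40 ± 0.15 with adjusted p = 1), and Ccne1 read lower in every Acot12-/- library (-0.22 ± 0.15 with adjusted p = 1). For Cdk1 the difference was 0.020 ± 0.15 (adjusted p = 1) with a 95% interval of -0.31 to 0.35, and for Mki67 0.10 ± 0.22 (adjusted p = 1) with an interval of -0.38 to 0.58. A difference of 1 on this scale lay outside the interval for each of them.

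In CL kidneys 33 of 36 estimates were above 0, with a median of 0.39 against 0.0085 over all genes. 2 genes were called, both higher, beside 1.12% of genes called higher and 3.36% called lower. The first was Mcm6, with all Acot12-/- libraries (20.3 to 25.1 FPKM) above all WT libraries (11 to 16.2 FPKM) and a difference of 0.75 ± 0.17 (adjusted p = 0.0263). The second was Ccnb2, at 6.84 to 7.54 against 3.36 to 4.89 FPKM, a difference of 0.72 ± 0.19 (adjusted p = 0.0496). Neither was firm: with the kidneys paired as a random block Ccnb2 had an adjusted p of 0.052, and the call was lost in 9 of 12 fits without a library for Ccnb2 and in 3 of 12 for Mcm6 (adjusted p up to 0.195 and 0.108). Before adjustment 18 of 36 had a p under 0.05, all higher, beside 7.02% of all genes. Every Acot12-/- CL library read above every WT CL library for 18 genes and below for none, beside 8.6% and 9.73% of all genes. By role, the unadjusted p was under 0.05 for 5 of 6 MCM genes, 4 of 5 clamp and nucleotide genes and 3 of 4 mitotic cyclins and Cdk1, against 1 of 8 kinetochore, motor and spindle genes.

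Replicate 2 of Acot12-/- CL, the library that stood apart, did not carry this alone. Without it 7 genes were called higher (Ccnb2, Mcm6, Ccnd1, Cdc20, E2f1, Mcm5 and Tk1), 29 of 36 estimates were above 0 and the median difference was 0.31. Calls over all genes rose as well in this fit, to 11.6% higher and 10.5% lower. For Rrm2 and Pcna, in contrast, it held the highest values by far, 26.6 and 141 FPKM against 12.7 to 14.1 and 66.9 to 94.9 in the other libraries of its group. Without replicate 1 or 2 of WT CL, or replicate 3 of Acot12-/- CL, no gene was called. Cell markers differed between these same CL kidneys: 10 of 12 endothelial, 6 of 10 lymphocyte, 4 of 12 macrophage and 3 of 11 fibroblast markers were called lower in Acot12-/- CL, and no proximal tubule marker was called. All 11 tested proximal tubule markers had estimates above 0, though, with a median of 0.52 and 3 at an unadjusted p under 0.05. Summed over 12 genes, Kap included, they read 4234 to 193971 FPKM in WT CL and 7302 to 134490 FPKM in Acot12-/- CL. These sums follow Kap, which was not tested, and so their overlap does not compare the groups. Kap read 0, 189588 and 0 FPKM in WT CL and 101309, 129163 and 0 in Acot12-/- CL. In the libraries with Kap at 0 the sums were 4234 and 5595 FPKM in WT CL and 7302 in Acot12-/- CL. The summed endothelial markers read 239 to 365 FPKM in WT CL and 88.6 to 139 in Acot12-/- CL, and the fibroblast markers 191 to 234 and 62.6 to 128. Their part in the higher values of the cell cycle genes was not tested.

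**Figure D4:**
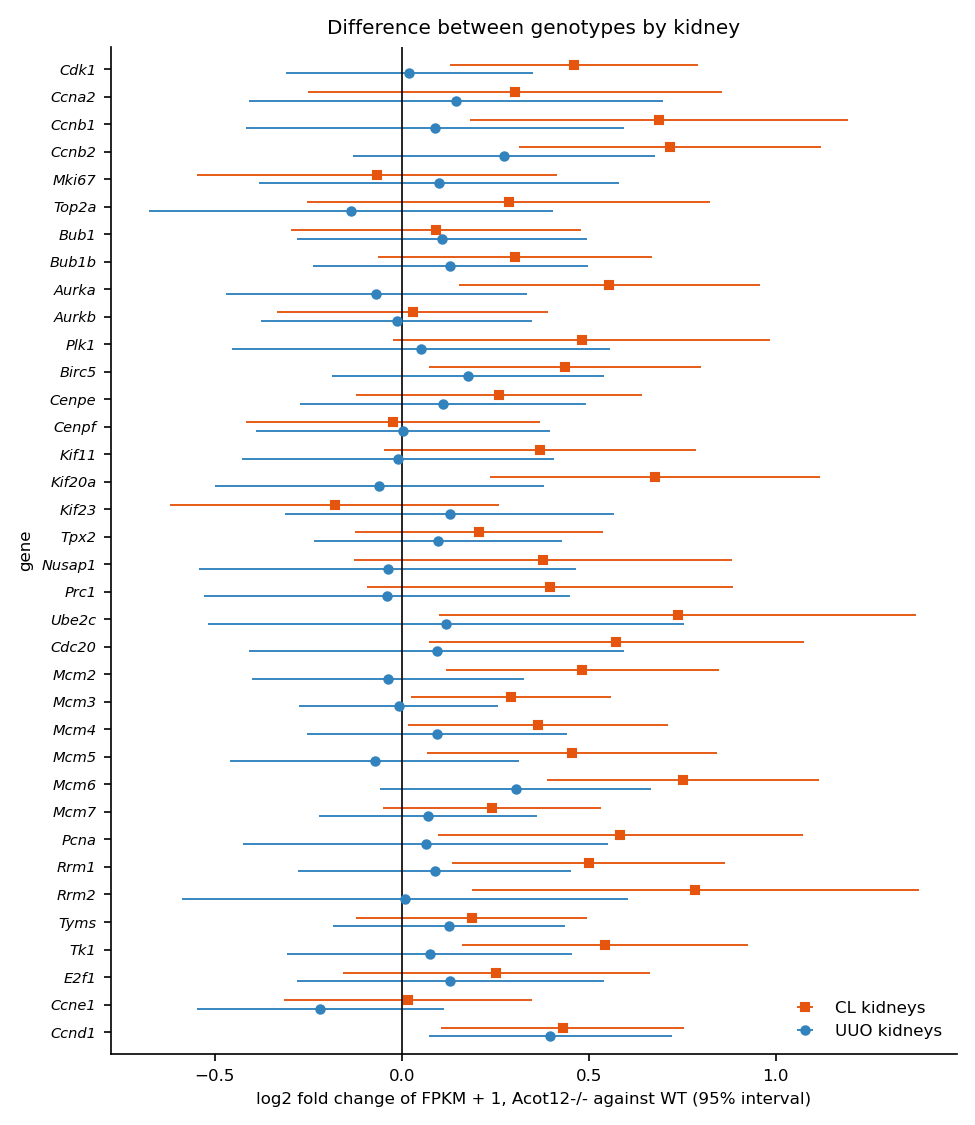
Difference of Acot12-/- from WT in log2(FPKM + 1) for the 36 tested genes, with 95% intervals, in CL kidneys (orange squares) and UUO kidneys (blue circles). In CL 33 of the 36 points lie above 0, while in UUO the points cluster around 0 with a median of 0.08.

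The interaction asks directly whether obstruction moved a gene differently in Acot12-/- and WT mice, and it called none of the 36 (0.106% of all genes were called). 3 genes had an unadjusted p under 0.05 (Kif20a, Aurka and Mcm2), beside 10.5% of all genes. 32 of the 36 estimates were negative, with a median of -0.40 against -0.011 over all genes, so that UUO minus CL was lower in Acot12-/- than in WT mice for these 32. The median was -0.22 without replicate 2 of Acot12-/- CL, where 7 of 36 estimates were above 0 and 6.8% of all genes were called, and -0.21 without replicate 3 of Acot12-/- UUO. Both differences share the same 12 libraries, and the CL values of Acot12-/- mice enter the interaction as well as the comparison of CL kidneys. For Rrm2 the estimate was -0.78 ± 0.39 (adjusted p = 0.535), for Kif20a -0.74 ± 0.29 (adjusted p = 0.365) and for Mcm5 -0.53 ± 0.25 (adjusted p = 0.499); none passed, and the interval of Rrm2, -1.62 to 0.068, shows how wide the uncertainty was with 3 libraries a group.

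Other genes of the same processes, from 5 lists that hold 141 genes besides these 37, were counted as well. The share of all tested genes called, which these counts are read against, was given above as 23.6% higher and 23.9% lower in WT and 26.6% and 27.2% in Acot12-/- mice. 130 were tested, and 52 rose and 8 fell in WT UUO against CL (40% and 6.15%), 43 rose and 18 fell in Acot12-/- mice (33.1% and 13.8%), none was called between genotypes in UUO kidneys or in the interaction, and 3 were higher in Acot12-/- CL kidneys. Of 48 further mitosis genes 22 rose and 2 fell in WT and 19 rose and 4 fell in Acot12-/- mice. The largest rises over both genotypes were those of Trip13, a checkpoint ATPase, and Incenp, the scaffold of the chromosomal passenger complex. Trip13 read 0.367, 0.675 and 0.456 in WT CL, 3.09, 2.48 and 2.44 in WT UUO, 0.558, 0.576 and 0.544 in Acot12-/- CL and 2.38, 2.87 and 1.94 FPKM in Acot12-/- UUO (1.20 ± 0.10 with adjusted p = 4.27e-07). Trip13 was under 1 FPKM in every CL library and passed the filter on low values through its UUO libraries alone. Its entry into the test thus depended on the rise, and its p-value is not separate evidence for it. Incenp rose by 1.08 ± 0.10 (adjusted p = 1.4e-06), from 2.31 to 3.60 FPKM in CL to 5.76 to 7.58 in UUO libraries of both genotypes. Its partners Aurkb and Birc5 were also called higher over both genotypes.

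The largest falls on that list were those of Spc25, a kinetochore gene, and Kif20b, a kinesin. Spc25 read 33.5, 33.3 and 31.2 in WT CL, 11.9, 11.2 and 11.2 in WT UUO, 38.9, 71.1 and 35.6 in Acot12-/- CL and 16.9, 11.9 and 11.7 FPKM in Acot12-/- UUO (-1.58 ± 0.16 with adjusted p = 2.2e-06), and Kif20b changed by -1.42 ± 0.26 (adjusted p = 0.000308). In both, every UUO library read below every CL library. Kif22 and Cdca3 were the mitosis genes called higher in Acot12-/- than in WT CL kidneys. Kif22, a chromosome-bound kinesin, read 1.63, 1.85 and 2.06 in WT CL and 3.64, 3.45 and 4.23 FPKM in Acot12-/- CL (0.74 ± 0.17 with adjusted p = 0.0286). Cdca3, a cell division cycle-associated gene, read 4.75, 8.07 and 6.26 and 9.88, 12.8 and 12.9 (0.82 ± 0.18 with adjusted p = 0.0257). Neither pair of groups overlapped.

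Of 44 further replication genes 17 rose and 2 fell in WT and 12 rose and 4 fell in Acot12-/- mice. Uhrf1, which helps copy DNA methylation onto new strands, read 2.85, 3.14 and 2.31 in WT CL, 10.3, 10.3 and 10.4 in WT UUO, 3.03, 4.62 and 4.50 in Acot12-/- CL and 10.8, 10.7 and 7.22 FPKM in Acot12-/- UUO. It rose by 1.33 ± 0.14 (adjusted p = 3.45e-06) over both genotypes, and Pclaf (listed as 2810417H13Rik), a partner of PCNA, by 1.28 ± 0.16 (adjusted p = 1.39e-05). Against them, Gmnn, geminin, which keeps origins from firing again, changed by -0.50 ± 0.11 (adjusted p = 0.00109).

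Among 22 other G1 and E2F-RB genes 7 rose and 2 fell in WT (31.8% and 9.09%), and 7 rose and 6 fell in Acot12-/- mice (31.8% and 27.3%, near the shares of all genes). Myc, the transcription factor of cell growth, read 1.31, 1.94 and 1.29 in WT CL, 16.4, 20.6 and 15.1 in WT UUO, 3.20, 2.07 and 2.92 in Acot12-/- CL and 11.9, 16.8 and 11.1 FPKM in Acot12-/- UUO. It was the most strongly raised gene of the list (2.40 ± 0.19 with adjusted p = 2.78e-07) while Ccnd1 fell in the same libraries. Cdk6, a kinase partner of D-type cyclins, rose by 1.07 ± 0.12 (adjusted p = 6.76e-06), whereas Ccng1, cyclin G1, a p53 target, changed by -1.62 ± 0.15 (adjusted p = 9.22e-07) and Rb1, the retinoblastoma gene, by -0.69 ± 0.18 (adjusted p = 0.00386). Of 9 tested genes of the G2/M transcription programme 4 rose and 2 fell in WT and 3 rose and 3 fell in Acot12-/- mice. Mybl2, which encodes B-MYB, read 0.409, 0.418 and 0.352 in WT CL, 1.23, 1.15 and 1.21 in WT UUO, 0.212, 0.241 and 0.124 in Acot12-/- CL and 1.32, 1.18 and 1.03 FPKM in Acot12-/- UUO (0.76 ± 0.081 with adjusted p = 3.23e-06). Like Trip13, Mybl2 passed the filter on low values through its UUO libraries alone, so its p-value is not separate evidence for a rise. The MuvB subunits split, with Lin37 higher (0.64 ± 0.13 with adjusted p = 0.000973) and Lin52 lower (-0.85 ± 0.14 with adjusted p = 0.000146), and Nfyc, a subunit of the factor that binds CCAAT boxes, changed by -0.42 ± 0.10 (adjusted p = 0.00297).

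Inhibitors of the cyclin-dependent kinases were measured in the same libraries. Cdkn1a, p21, the p53-induced inhibitor, read 5.64, 14.5 and 7.97 in WT CL, 39.1, 41.1 and 28 in WT UUO, 2.70, 2.53 and 9.87 in Acot12-/- CL and 19.2, 37.9 and 27.5 FPKM in Acot12-/- UUO. All UUO libraries lay above all CL libraries, and the rise was 1.91 ± 0.43 (adjusted p = 0.00315) in WT and 2.43 ± 0.43 (adjusted p = 0.000479) in Acot12-/- mice. The inhibitor of CDK2 thus rose along with the mitotic kinases. Cdkn2b, p15, an inhibitor of CDK4 and CDK6, read 1.16, 1.40 and 1.34 in WT CL, 3.58, 3.88 and 4.28 in WT UUO, 0.287, 1.57 and 1.70 in Acot12-/- CL and 3.05, 5.37 and 3.17 FPKM in Acot12-/- UUO (1.10 ± 0.26 with adjusted p = 0.00429 in WT and 1.20 ± 0.26 with adjusted p = 0.00192 in Acot12-/- mice). Cdkn2c, p18, was the inhibitor called between genotypes, in CL kidneys alone. It read 15.3, 17 and 15.5 in WT CL, 14.2, 12.1 and 13.7 in WT UUO, 25.6, 28 and 22.3 in Acot12-/- CL and 12.1, 11.7 and 11.1 FPKM in Acot12-/- UUO. It was higher in Acot12-/- than in WT CL kidneys (0.63 ± 0.13 with adjusted p = 0.0184) and fell with obstruction in Acot12-/- mice (-1.06 ± 0.13 with adjusted p = 3.62e-05), while the change in WT mice was -0.24 ± 0.13 (adjusted p = 0.138). No inhibitor was called in the interaction, so these changes were not shown to differ by genotype.

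The remaining inhibitors were not called in any comparison. Cdkn1b, p27, was abundant, at 23.1, 23.3 and 19.2 in WT CL, 28.4, 25.7 and 26.7 in WT UUO, 23.3, 44.8 and 20.9 in Acot12-/- CL and 29, 34 and 33.1 FPKM in Acot12-/- UUO, with a change over both genotypes of 0.24 ± 0.16 (adjusted p = 0.205). Cdkn1c, p57, changed by -0.25 ± 0.16 (adjusted p = 0.179) and Cdkn2d, p19, by -0.054 ± 0.16 (adjusted p = 0.777), both with overlapping groups. Cdkn3, a phosphatase that acts on CDKs, read 3.99, 9.54 and 3.69 in WT CL and 8.14, 13.4 and 13.2 FPKM in Acot12-/- CL, overlapping and not called (0.98 ± 0.29 with adjusted p = 0.0872). Cdkn2a, which encodes p16 and ARF, was under 1 FPKM in every library, at 0, 0.234 and 0.10 in WT CL, 0.252, 0.310 and 0.126 in WT UUO and 0.445, 0.391 and 0.205 FPKM in Acot12-/- UUO, and was listed at 0 in all 3 Acot12-/- CL libraries.

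**Figure D5:**
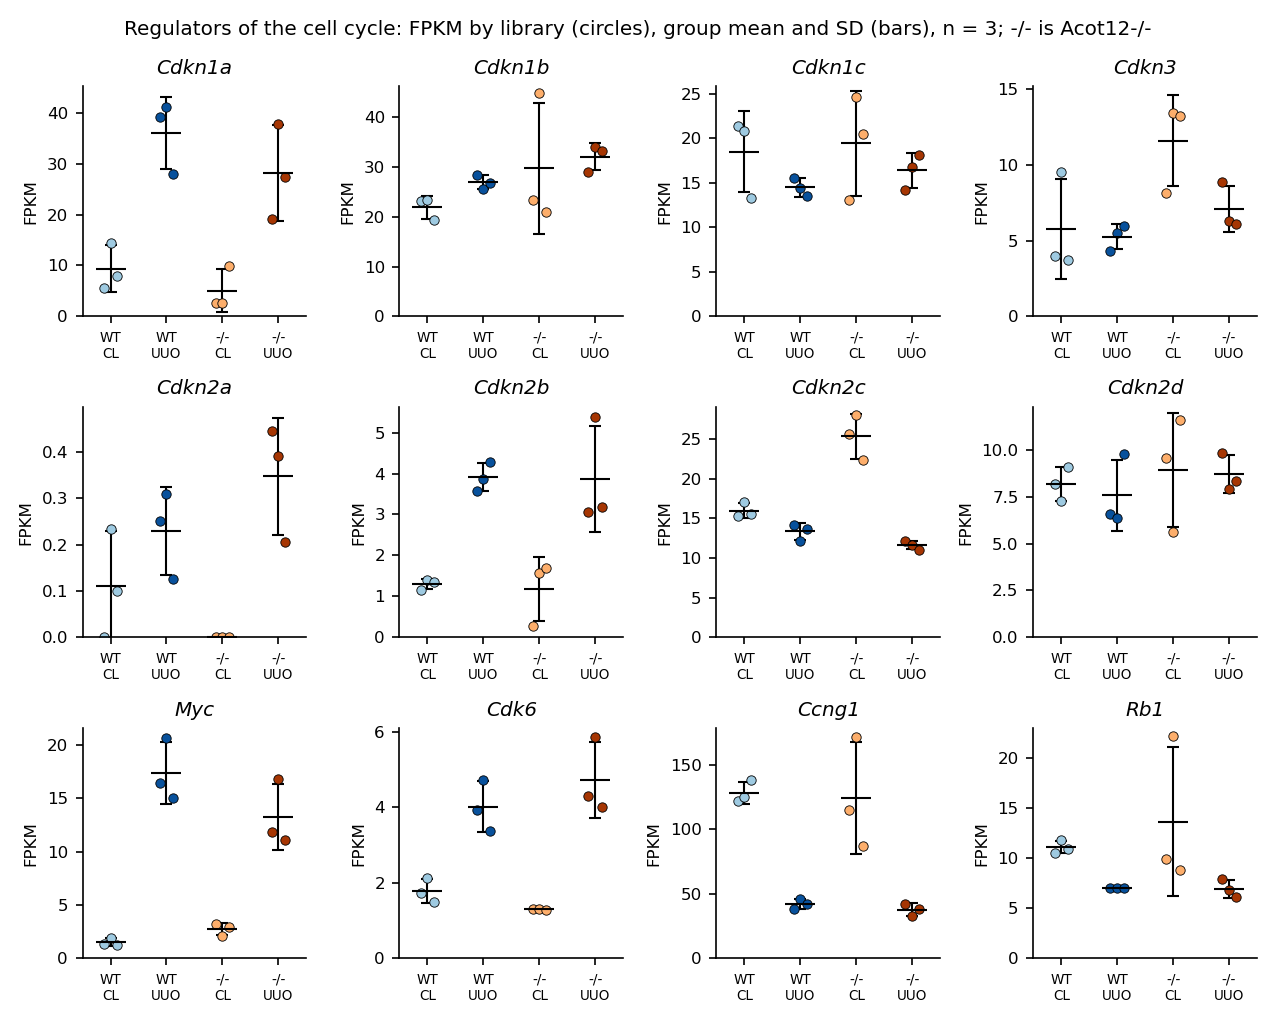
FPKM of 8 inhibitors of cyclin-dependent kinases and of Myc, Cdk6, Ccng1 and Rb1 in every library (circles), with group mean and SD (bars, n = 3). Cdkn1a, Cdkn2b, Myc and Cdk6 read higher in every UUO library than in any CL library, Ccng1 lower, and Cdkn2c highest in Acot12-/- CL.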

How the data were processed

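The authors, through their sequencing service, trimmed, mapped and normalized the reads and deposited 1 file per library with an FPKM value per gene. The processing notes name edgeR and mm10 without a role. The aligner is not given in the sources used here, and no counts were used, so no count test was run. Libraries were NEBNext Ultra II Directional.

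The 37 genes, the gene lists and the marker lists were chosen with earlier results of these data known. log2(FPKM + 1) was fitted with limma 3.58.1 in R 4.3.3 (all 4 groups in 1 model, moderated with a trend), on genes with at least 1 FPKM in at least 3 libraries. A further 28 genes listed at 0 in a library beside 10 FPKM or more in another of the same group were left out, none of them among the 37. The 13243 genes left gave Benjamini-Hochberg adjusted p-values for 6 comparisons: UUO against CL in each genotype and over both, Acot12-/- against WT in each kidney, and the interaction. The + 1 understates changes of low genes. The script was tested on simulated data. Depth was estimated from the steps of low values. Kidneys of the same replicate number were taken as pairs, because the residuals of every such pair correlated (0.134 to 0.364). Between different numbers the correlation was at most 0.139, which is above that of WT replicate 1, so the pairing is an assumption. All 37 genes are given by role. Other genes were named by a rule: per list the 2 largest rises and falls called over both genotypes, any gene called between genotypes or in the interaction, and every inhibitor of cyclin-dependent kinases. A gene named by this rule is not reported here. Coordinates are those of GRCm38 (GENCODE and RefSeq). Directional libraries were made, but whether reads were counted by strand is not given in the sources used here. Alternatives covered the pseudocount, the filter, the scaling, the variance trend, the samples fitted, a fold limit, the pairing and leaving out each library.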

Additional observations from a re-analysis of the deposited data

How the results depend on the processing

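Counts of called genes among the 36 tested are given here in the order UUO against CL in WT, in Acot12-/- mice and over both genotypes, then Acot12-/- against WT in CL kidneys; in UUO kidneys and in the interaction the count was 0 under every alternative. The main counts were 22, 13, 23 and 2, beside 47.5%, 53.7%, 63.4% and 4.48% of all genes called in either direction. The counts of the 36 were the same with median-ratio size factors. With libraries scaled to equal totals they were 35, 25, 34 and 0, on medians of all genes of 0.62, 0.45, 0.54 and 0.02. The shares of all genes called were then 64%, 57.6%, 72.3% and 2.51%. Estimates above 0 then went from 34, 26, 31 and 33 to 35, 35, 35 and 33, from 25 to 7 in UUO kidneys and from 4 to 1 in the interaction. Of the estimates that passed the test in either fit 4 turned positive: Tyms in Acot12-/- mice (0.0825) and, over both genotypes, Pcna (0.6045), Rrm2 (0.5653) and Tyms (0.1923); the median of all genes moved by the scaling. In CL kidneys 1 gene was called in place of 2 with no filter on low values, with genes listed at 0 kept, without a variance trend and with a random replicate block, and 0 when only the groups compared were fitted. That last setting gave 31 in WT and 6 in Acot12-/- mice, beside 64.8% and 40.3% of all genes called. A fold of at least 2 as well left 4, 1, 1 and 0, beside 19.9%, 25.9%, 22.4% and 1.9% of all genes. Of the 36, 3 were then called higher in WT mice, beside 8.74% of all genes called higher. In Acot12-/- mice 0 were, beside 13.4%. Under this limit the share called higher in WT mice was thus near that of all genes. Pairing the kidneys by a replicate block gave 27, 14, 23 and 1 with a random block and 23, 12 and 23 with a fixed block, which could not be fitted for Acot12-/- against WT. Over all genes the random block called 53.1%, 58.6%, 65.3% and 4.48%, and the fixed block 51%, 56.2% and 64.5%. The calls that pairing changed are given beside their genes and it changed no other call. Fitting only the groups compared does not differ from the model used for the interaction and for both genotypes. Leaving out 1 library at a time gave 16 to 27, 7 to 19, 21 to 26 and 0 to 7. The 7 in Acot12-/- mice came without replicate 2 of UUO (8 without replicate 1) and the 19 without replicate 2 of CL. Where a group was left with 2 libraries the spread was shared with the other groups. Of 22 calls in WT mice 16 held in all 12 such fits (not Bub1, Ccne1, Kif20a, Kif23, Mcm2 and Tk1), of 13 in Acot12-/- mice 7 held (Aurkb, Ccnd1, Kif23, Mcm3, Mcm4, Mcm7 and Tpx2), and of 2 in CL kidneys none. Leaving out both kidneys of Acot12-/- replicate 2, chosen after seeing the data, gave 27, 15, 24 and 7, beside 62.3%, 57.2%, 66.7% and 24.4% of all genes. How far depth limits the calls of low genes was not tested.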

Other observations

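11 of the 141 further genes of the cell cycle lists did not reach 1 FPKM in 3 libraries and have no test, and several read higher in the UUO kidneys of both genotypes. E2f7, a repressor among the E2F factors, read 0.142 to 0.169 FPKM in WT CL and 0.448 to 0.465 in WT UUO, and in Acot12-/- mice 0.102 to 0.254 in CL against 0.349 to 0.596 in UUO, with no overlap. Kif14, a kinesin of cytokinesis, read 0.062 to 0.166 in WT CL and 0.272 to 0.299 in WT UUO, and in Acot12-/- mice 0.053 to 0.139 against 0.25 to 0.312 FPKM. Espl1, separase, which cuts the cohesin ring at anaphase, read 0.245 to 0.406 in WT CL against 0.758 to 0.924 in WT UUO, and 0.259 to 0.506 against 0.55 to 0.994 FPKM in Acot12-/- mice. The licensing factor Cdc6 read 0.167 to 0.394 in WT CL and 0.567 to 0.743 in WT UUO, but in Acot12-/- mice 0.341 to 0.728 in CL against 0.592 to 0.64 FPKM in UUO, where the groups overlapped. These genes were picked for description after their values were seen.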
